A study of Mus musculus with 24 samples.

Results

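The mitosis genes described here are 42 genes matched by symbol among the 55385 genes of the deposited table, and each symbol was found once. They encode the machinery that drives a cell from the end of G2 phase through chromosome segregation to cytokinesis. They were measured by RNA sequencing in P815, a mouse mastocytoma (mast cell tumour) line grown with 10% fetal bovine serum, in 24 libraries that form 8 groups of 3. The groups were cells transfected with a short hairpin RNA vector against Esr1 and treated with β-estradiol for 24 h (SH_E2) or without β-estradiol (SH), cells given ICI-182780 (fulvestrant, an antiestrogen that degrades the receptor) with (ICI_E2) or without β-estradiol (ICI), cells given tamoxifen (an antiestrogen that binds the receptor) with (Tamo_E2) or without β-estradiol (Tamo), and cells with a negative control vector with (NC_E2) or without β-estradiol (NC). Treatment lasted 24 h, and no time is stated for SH and NC without β-estradiol. The labels name no dose, no vehicle and no clone, and do not say that the inhibitor groups carried a vector, so drug and vector cannot be told apart in a comparison of ICI or Tamo with NC. They do not say either whether the 3 libraries of a group, numbered 1, 2 and 3, came from separate cultures, so p-values measure the spread between these libraries, which may be technical.

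Libraries held 42.1 to 68.8 M estimated counts (M, mega), with 18637 to 20335 genes detected. Of 17 mast cell markers, 12 had a median of 1 FPKM or more over the 24 libraries. Among them were Kit (98.3 to 174.5 FPKM), Cpa3 (133.7 to 586.4 FPKM) and Gata2 (137.9 to 261.3 FPKM). Fcer1a stayed at or below 0.937 FPKM, and Ms4a2, Mcpt1, Mcpt4 and Tpsb2 also had medians under 1 FPKM. FPKM are fragments per length of transcript, scaled to the size of the library. Of 10 markers of other cell types, none passed the expression filter. The T cell gene Cd3e reached at most 4 counts, and Ms4a1 and Ncr1 (B and natural killer cells) were at 0 counts in every library. Adgre1 and Col1a1 were not absent, with up to 1.61 FPKM (248 counts) and 1.67 FPKM (654 counts). Esr1, the target of the hairpin, was at 0.161 to 0.520 FPKM in all libraries and below that filter. Its level averaged 0.215 ± 0.0369 FPKM in SH_E2 and 0.314 ± 0.0781 FPKM in NC_E2, and 0.278 ± 0.0620 FPKM in SH and 0.342 ± 0.135 FPKM in NC (SD, n = 3 each). The SH and NC ranges overlapped, so the level of the target does not by itself separate the libraries labelled SH from those labelled NC. By replicate number (1, 2 and 3), SH_E2 had 0.254, 0.181 and 0.210 FPKM against 0.389, 0.319 and 0.234 FPKM in NC_E2. SH had 0.347, 0.227 and 0.260 FPKM against 0.404, 0.435 and 0.187 FPKM in NC. Each SH_E2 or SH library was the lower of its pair, except SH replicate 3.

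Entry into mitosis is driven by the kinase CDK1 bound to cyclins A and B. CDC25 phosphatases activate it, and polo-like and aurora kinases build the spindle and tie it to the kinetochores. The spindle checkpoint holds the anaphase-promoting complex (APC/C) inactive until all chromosomes are attached, after which CDC20 directs it to securin and cyclin B. Most of these genes are transcribed in G2 phase, through FOXM1 and the MuvB complex. Their summed level in a bulk sample therefore rises with the share of cells in G2 and mitosis, and a smaller share of such cells and less RNA per cell cannot be told apart here.

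Promoters of such genes often carry a cell cycle homology region (CHR, TTTGAA), bound by the MuvB complex, and CCAAT boxes, bound by NF-Y. The stretches below are shown because they let these letters be seen in members whose values are given below, among them Ncapd2, which did not move with the rest. They come from RefSeq promoters of build GRCm38.p6, read 5′ to 3′ on the gene's strand, with the CHR letters TTTGAA, the variant TTCGAA, the CCAAT box and their reverse complements in capitals. The first 4 are the 130 bases before the start.

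Cdc20, chr4:118437344-118437473, minus strand: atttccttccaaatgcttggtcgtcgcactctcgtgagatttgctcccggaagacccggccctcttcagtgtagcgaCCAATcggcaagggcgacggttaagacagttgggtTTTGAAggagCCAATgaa
Cdk1, chr10:69352913-69353042, minus strand: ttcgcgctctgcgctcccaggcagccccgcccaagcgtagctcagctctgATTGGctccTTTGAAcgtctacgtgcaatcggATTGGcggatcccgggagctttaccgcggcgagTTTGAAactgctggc
Kif11, chr19:37376252-37376381, plus strand: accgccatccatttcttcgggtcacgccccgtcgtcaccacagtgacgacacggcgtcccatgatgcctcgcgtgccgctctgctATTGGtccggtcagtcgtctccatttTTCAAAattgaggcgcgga
Top2a, chr11:99024190-99024319, minus strand: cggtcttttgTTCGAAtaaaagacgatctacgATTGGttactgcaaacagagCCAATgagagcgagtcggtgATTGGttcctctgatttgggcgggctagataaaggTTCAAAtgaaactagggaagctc

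The next 5 are 30 bases around TTTGAA, at or downstream of the start except in Ncapd2, where the motif lies upstream of it.

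Plk1, chr7:122159453-122159482, plus strand: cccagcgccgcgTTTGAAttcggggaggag
Aurka, chr2:172370521-172370550, minus strand: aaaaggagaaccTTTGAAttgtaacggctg
Kif23, chr9:61946780-61946809, minus strand: ctgATTGGcctgTTTGAAatgcgccgggcg
Kif20b, chr19:34922359-34922388, plus strand: ccattgTTTGAATTTGAAaaccgggaggaa
Ncapd2, chr6:125191692-125191721, minus strand: cagccgttgaggTTTGAAcagggaattgcg

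Promoters were matched for 35 of the 42 members, as 38 entries of 300 bases. TTTGAA on either strand was present in 76.3% of these entries, in 43.0% of those of further mitosis genes, in 14.0% of those of S phase genes and in 17.9% of all 32851 entries. The same shares for CCAAT on either strand were 78.9%, 60.2%, 54.4% and 37.4%, and for TTCGAA, which is its own reverse complement, 10.5%, 10.8%, 3.51% and 1.56%. The 3 motifs were searched separately, and overlapping matches were allowed. In the 250 bases before the start alone, TTTGAA was in 42.1% of members' entries and 16.0% of all entries. A match says only that the letters are there.

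Levels differed widely among the members. Averaged over 24 libraries, the lowest was Cdc25c, a phosphatase that activates CDK1, at 3.41 FPKM. Cenpf, a kinetochore protein, stood next at 3.56 FPKM and Kif23, the kinesin of the central spindle, at 4.15 FPKM. At the upper end Ncapd2, a subunit of the condensin I complex, averaged 183.2 FPKM. Cdc20 followed at 61.1 FPKM, Top2a, the topoisomerase that untangles sister chromatids, at 54.8 FPKM, Ccnb2 at 46.3 FPKM and Tpx2, an activator of aurora A, at 44.8 FPKM. Ncapd2 was far above its own complex. The other condensin subunits had 24-library medians of 6.87 FPKM (Ncapg), 11.9 FPKM (Smc2), 16.6 FPKM (Ncaph) and 27.1 FPKM (Smc4), and those of condensin II 6.75 to 34.3 FPKM, against 186.2 FPKM for Ncapd2. In the GENCODE vM21 annotation an exon of a retained-intron Ncapd2 transcript shares 237 bases with the small Cajal body RNA gene Scarna10 on the same strand, and Scarna10 itself was listed at 0 to 8 counts. Whether reads of that RNA enter the Ncapd2 value was not tested.

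The largest differences among the mitosis genes followed the replicate number of a library rather than its treatment. For each member, the highest of the 8 group means was 1.10 to 1.81 times the lowest (median 1.23), and the highest of the 3 replicate number means was 1.33 to 2.63 times the lowest (median 2). In 41 of 42 members the ratio between replicate numbers was the larger. The exception was Cenpe, the kinetochore motor. The labels do not say what the number marks, and all 8 groups hold 1 library of each number, so treatment and number are balanced. The replicate number effect was fitted in edgeR with group as the other term, and p-values were adjusted over all 12183 genes tested. That fit counts libraries of the same number as independent. Its p-values and SEs measure the spread between libraries, not between whatever units the numbers mark.

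**Figure D1:**
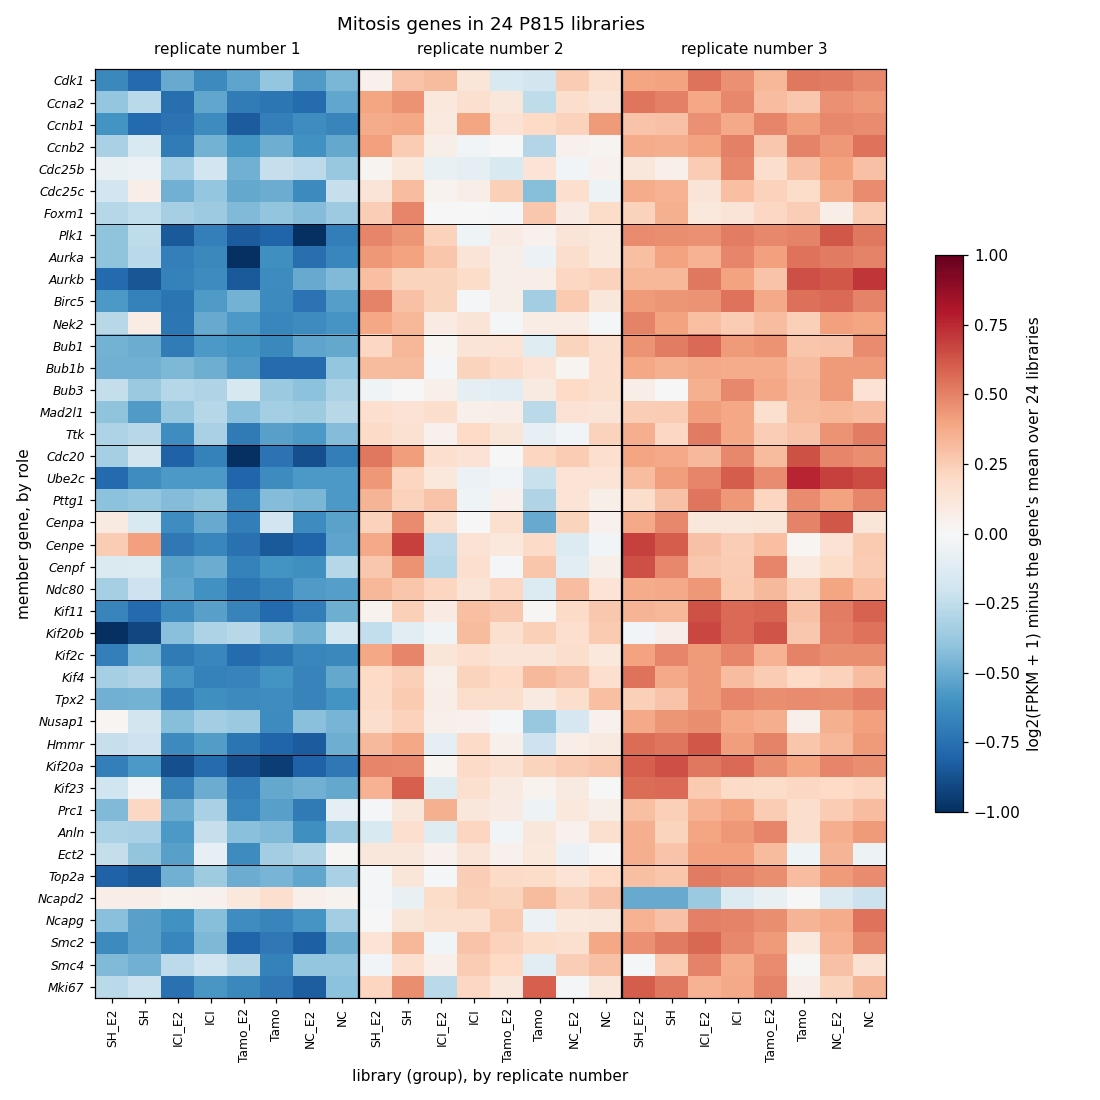
Heat map of log2(FPKM + 1) of the 42 members (rows, ordered by role) minus each gene's mean over the 24 libraries (columns, ordered by replicate number and then group). Nearly all of the number 1 block is blue, the number 2 block pale and the number 3 block red, and the Ncapd2 row runs the other way between numbers 2 and 3.

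Replicate 1 libraries carried less mitosis RNA than replicate 2 and 3 libraries of the same group. Of the 42 members, 41 were lower and 0 higher at an adjusted p under 0.05, against a background of 21.5% of all tested genes lower, 22.6% higher and 44.1% called in either direction. The median log2 fold change of the members was -0.92, and that of all genes was 0.02. Together the members made up 0.369% to 0.404% of the counts of replicate 1 libraries and 0.530% to 0.624% of those of replicate 2 and 3 libraries, and these ranges did not overlap. Ncapd2, the member that did not fall, weighs most in this sum. It had 55727 to 90707 estimated counts in a library, against 12567 to 48133 for Top2a, the next. The summed share is therefore not a measure of the other members alone. In 27 members every replicate 1 library lay below all 16 others, a pattern found in 3.14% of tested genes. In 38 members replicate 1 was the lowest library in all 8 groups (7.63% of tested genes). The other 4 members were Ect2, Cenpa and Prc1, which met this in 7 groups, and Ncapd2, which met it in 0.

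Replicate 1 libraries held 42.1 to 57.7 M estimated counts, with a median of 50.5 M estimated counts, and libraries of replicates 2 and 3 held 44.7 to 68.8 M estimated counts, with a median of 58.1 M estimated counts. Mitochondrially encoded genes took 4.78% to 5.38% of counts in replicate 1 and 4.76% to 5.95% in replicates 2 and 3, and genes detected numbered 18637 to 19374 in replicate 1 and 18911 to 20335 in replicates 2 and 3. Depth was thus lower at the median in replicate 1, and its part in the result was not tested. Counts were scaled by library, which itself brings the median of all genes near 0, so that median gives no information about depth.

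Among the genes of mitotic entry, all 7 members fell, with a median log2 fold change of -0.77. Ccnb1, which encodes the cyclin that activates CDK1, had 12.7 to 15.1 FPKM (median 14.3) in replicate 1 libraries, against 25.0 to 33.2 FPKM (median 30.7) in replicates 2 and 3, and the ranges did not overlap (log2 fold change -1.12 ± 0.05 SE, edgeR adjusted p = 6.5e-11). Cdk1 itself was at 9.83 to 13.1 FPKM (median 11.7) in replicate 1 and 15.3 to 26 FPKM (median 22.2) in the others (-0.92 ± 0.07). Foxm1, the transcription factor of the G2 programme, was at 6.07 to 7.08 FPKM (median 6.46) in replicate 1 and 8.52 to 12.5 FPKM (median 9.97) in the others (-0.63 ± 0.04). The smallest fall of the 41 was Cdc25b (-0.45 ± 0.07), another CDK1-activating phosphatase, whose libraries overlapped.

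All 5 kinase and passenger complex genes fell as well, with a median of -1.02. Plk1, the polo-like kinase, had 10.1 to 17.7 FPKM (median 12.3) in replicate 1, against 20.8 to 33.5 FPKM (median 29.8) in the others, a log2 fold change of -1.12 ± 0.08. Aurka, the aurora kinase of the spindle poles, had 10.6 to 18.5 FPKM (median 14.0) in replicate 1 and 21.5 to 33.2 FPKM (median 29.3) in the others (-1.02 ± 0.08). Both genes had their highest replicate 1 values in SH and SH_E2 (17.7 and 15.9 FPKM for Plk1, 18.5 and 16.7 FPKM for Aurka). Aurkb and Birc5, catalytic subunit and survivin of the chromosomal passenger complex, fell by 1.09 and 1.01 on the log2 scale.

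The spindle checkpoint genes fell with a median of -0.93 (5 of 5). Bub1, a checkpoint kinase at kinetochores, was at 9.94 to 11.8 FPKM (median 11.1) in replicate 1, against 15.4 to 25.4 FPKM (median 20.6) in the others. Bub3, its constitutive partner, was among the least affected members (-0.50 ± 0.06), and Mad2l1 was at -0.65 ± 0.06. The 3 APC/C partners fell by 0.76 (Pttg1, securin) to 1.06 (Cdc20) on the log2 scale. Cdc20, the activator of the complex, was at 26.8 to 50.5 FPKM (median 34.6) in replicate 1 and 57.7 to 89.8 FPKM (median 73.7) in the others, with no overlap. It shares its locus with Elovl1 on the opposite strand.

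Among motors and midzone proteins, with medians of -0.95 and -0.79, stood the members with the largest falls, Kif20a and Kif2c. Kif20a, a kinesin needed for cytokinesis, was at 7.46 to 9.89 FPKM (median 8.38) in replicate 1 and at 15.6 to 24.3 FPKM (median 21.4) in the others, which was the largest difference of the members (-1.29 ± 0.04, adjusted p = 1.7e-12 in edgeR). It overlaps Cdc23 on the opposite strand, and Cdc23 itself differed by -0.26 ± 0.04. The strand used in counting is not stated, so reads of such pairs cannot be told apart. The partner's counts were 77.7% of the member's for Kif20a, 83.6% for Cdc20 (Elovl1), 69.4% for Kif4 (Pdzd11), 43.2% for Ncapg (Lcorl), 25.4% for Ccna2 (Exosc9), 18.2% for Prc1 (Rccd1) and 16.2% for Nusap1 (Oip5). Kif11, the motor that separates the spindle poles, was at 7.55 to 9.46 FPKM (median 8.26) in replicate 1, against 13.8 to 21.8 FPKM (median 17.0). Kif2c, a microtubule depolymerase, was at 4.51 to 5.84 FPKM (median 4.90) in replicate 1, against 9.10 to 12.2 FPKM (median 11.3). Tpx2 was at 26 to 30.6 FPKM (median 27.6) in replicate 1 and 44.9 to 61.1 FPKM (median 52.0) in the others. Ect2, the exchange factor that starts the cleavage furrow, moved least in this class (-0.54 ± 0.08).

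Of the chromosome structure genes, 5 of 6 fell. Top2a was at 29.0 to 42 FPKM (median 37.3) in replicate 1 and 51.9 to 75.9 FPKM (median 63.3) in the others, without overlap (-0.85 ± 0.05). Mki67, which coats mitotic chromosomes and serves as a proliferation marker, was at 6.55 to 10.5 FPKM (median 7.74) in replicate 1 and 10.1 to 19.4 FPKM (median 15.3) in the others (-0.93 ± 0.08), and its ranges overlapped. Smc2, a core condensin subunit, differed by -1.09 ± 0.06. Ncapd2 was the only member that did not fall. It was at 185.2 to 203.8 FPKM (median 188.8) in replicate 1 and 127.1 to 225.9 FPKM (median 175.4) in the others, and its log2 fold change of 0.08 ± 0.04 did not pass (adjusted p = 0.126, edgeR).

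**Figure D2:**
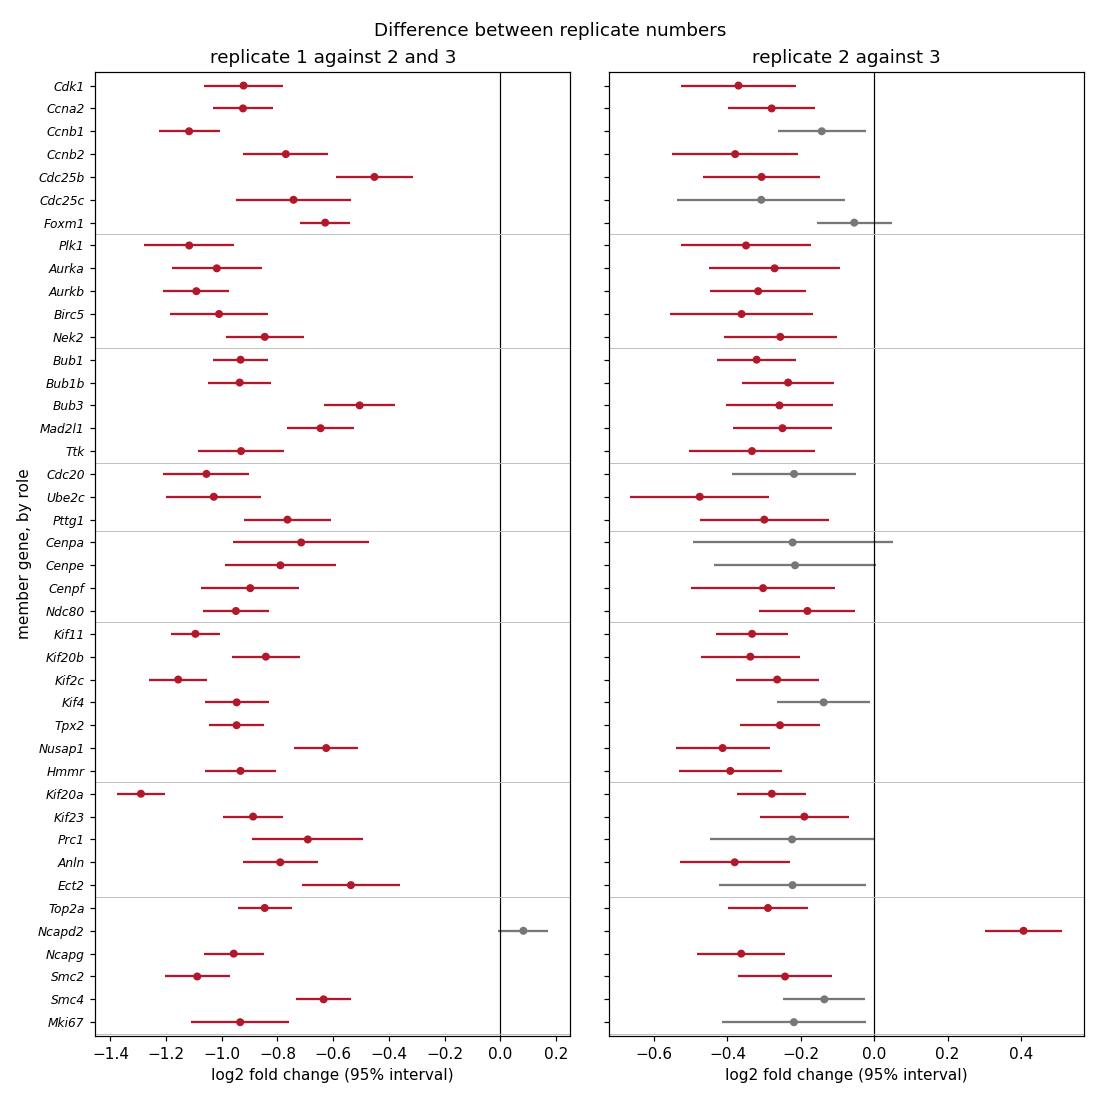
Log2 fold change with its 95% interval for each member (ordered by role), replicate 1 against 2 and 3 at left and replicate 2 against 3 at right, with a separate horizontal scale in each panel; red marks an adjusted p under 0.05 and grey the rest. At left 41 members lie between -1.29 and -0.45 and Ncapd2 at 0.08; at right the members are between -0.48 and -0.05 except Ncapd2 at 0.41.

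The difference was seen within each treatment group. The median over members of log2(FPKM + 1) in replicate 1 minus the mean of replicates 2 and 3 was below 0 in all 8 groups, and 40 to 42 of 42 members were lower in replicate 1 in every group. The medians were -0.67 in SH and -0.69 in SH_E2, against -0.73 to -0.89 in the other 6 groups. Whether the SH arm differs in this was not tested. Of the 35 members with a promoter entry, the 26 with TTTGAA had a median log2 fold change of -0.93 (-1.16 to 0.08). The 9 without it had -0.79 (-1.12 to -0.45), so the ranges overlapped, and among these 9 Bub1 and Cdc25b carry the variant TTCGAA. The 7 members with no promoter entry had a median of -0.92 (-1.29 to -0.63). The part of the motif in the difference was not tested.

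A smaller difference in the same direction separated replicate 2 from replicate 3. Of 42 members, 30 were lower in replicate 2 and 1 was higher, where 8.78% of tested genes were lower, 10.6% higher and 19.4% called either way. The median was -0.28 and that of all genes -0.0034. Kif11 was at 13.8 to 17.1 FPKM (median 16.1) in replicate 2 and 17.0 to 21.8 FPKM (median 20.3) in replicate 3 (-0.33 ± 0.05). Nusap1, a spindle microtubule bundler, was at 5.93 to 9.55 FPKM (median 8.27) in replicate 2 and 8.35 to 11.5 FPKM (median 10.7) in replicate 3 (-0.41 ± 0.06). In both genes the ranges overlapped. Ncapg, a condensin I subunit, was at 5.96 to 7.73 FPKM (median 6.87) in replicate 2 and 7.90 to 9.61 FPKM (median 8.72) in replicate 3, without overlap (-0.36 ± 0.06), and it overlaps Lcorl on the opposite strand. Kif20a was at 15.6 to 21.7 FPKM (median 18.1) in replicate 2 and 20.4 to 24.3 FPKM (median 22.1) in replicate 3 (-0.28 ± 0.04). Bub1 was at 15.4 to 21.4 FPKM (median 18.7) in replicate 2 and 20.5 to 25.4 FPKM (median 23.3) in replicate 3 (-0.32 ± 0.05). In 18 members replicate 2 was below replicate 3 in all 8 groups, as it was in 5.46% of tested genes. The 11 members that did not pass included Foxm1 (-0.05 ± 0.05, adjusted p = 0.460 in edgeR), Ccnb1 (-0.14 ± 0.06) and Cdc20 (-0.22 ± 0.08).

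Ncapd2 went against the rest here. It was higher in replicate 2 than in replicate 3 in all 8 groups, with 172.4 to 225.9 FPKM (median 211.9) in replicate 2 and 127.1 to 181.9 FPKM (median 159.8) in replicate 3 (0.41 ± 0.05, edgeR adjusted p = 6.4e-05). The plot of 9 genes by group shows the order of the numbers changing between Ncapd2 and the others.

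**Figure D3:**
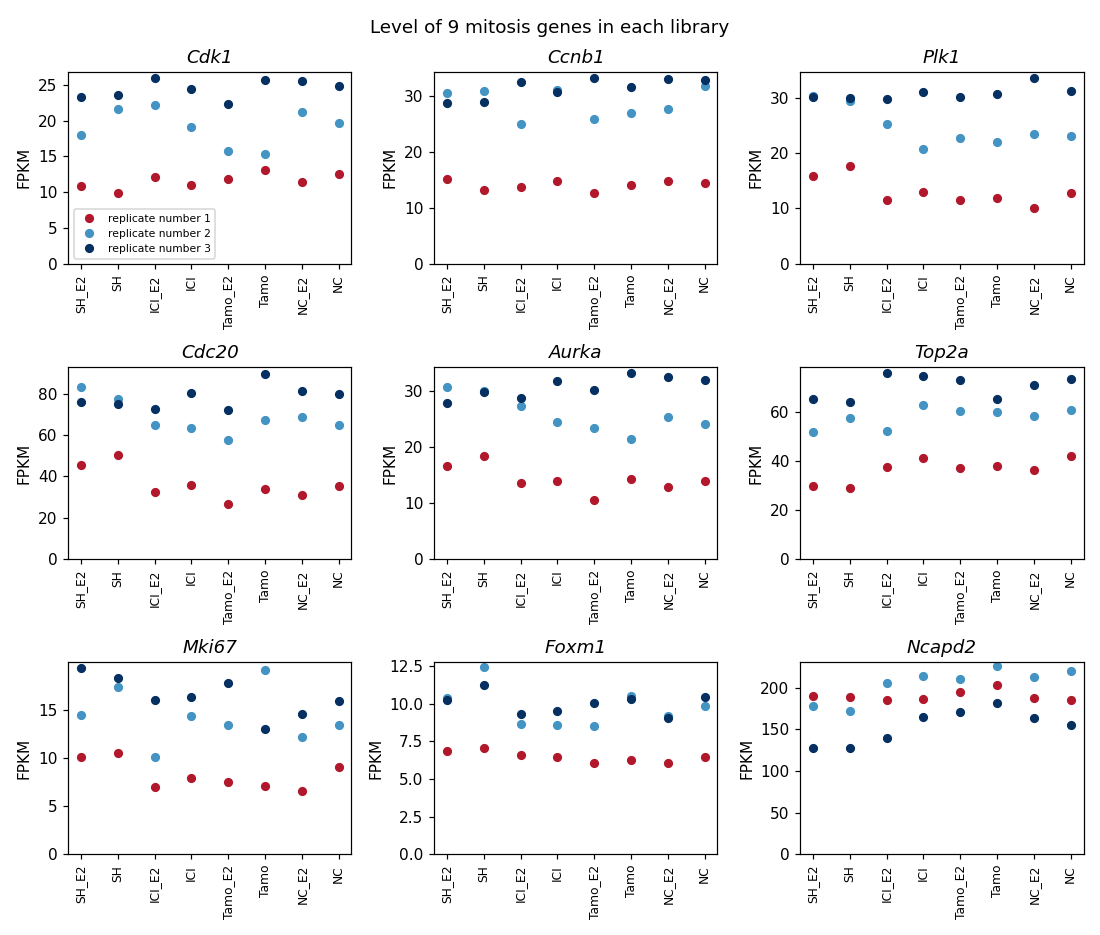
FPKM of 9 members in each of the 24 libraries (one point per library), by group on the horizontal axis and coloured by replicate number. In the first 8 genes the replicate 1 point is the lowest in every group; in Ncapd2 replicate 1 lies between 185.2 and 203.8 FPKM and replicate 3 is the lowest in every group.

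Of the related lists, further mitosis and S phase genes were mostly lower in replicate 1, and APC/C subunits and cell cycle brakes were split. Of all tested genes, 21.5% were lower, 22.6% higher and 44.1% called either way in that contrast. Of 96 further mitosis genes tested, 84 were lower and 2 higher in replicate 1 than in replicates 2 and 3 (median -0.71), among them Incenp (-0.86 ± 0.04), the scaffold of the passenger complex, and Hjurp (-0.87 ± 0.04), the chaperone that loads CENP-A. Of 63 S phase genes, 56 were lower and 1 higher (median -0.54). Rrm2, the small subunit of ribonucleotide reductase, was at 50.6 to 71.0 FPKM (median 61.9) in replicate 1 and 114.3 to 170.6 FPKM (median 152.7) in the others, and Mcm5, a subunit of the replicative helicase, fell by 0.70 on the log2 scale. Of 15 genes of APC/C subunits and its activator Cdh1 there were 6 lower and 3 higher (median -0.08). Of 9 cell cycle brakes tested, 2 were higher (Rbl2, 0.47 ± 0.06, and Btg1, 0.20 ± 0.05) and 1 lower (Ccng2, -0.93 ± 0.05).

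Mast cell markers went the other way. Of 13 tested, 8 were higher in replicate 1 and 0 lower (median 0.35), against 22.6% and 21.5% of all genes. Fcer1g, the shared gamma chain of Fc receptors, was at 171.5 to 238.2 FPKM (median 220.0) in replicate 1 and 106.3 to 190.8 FPKM (median 153.6) in the others, and Slc18a2, which loads histamine into granules, rose by 0.38 ± 0.03 on the log2 scale. In replicate 2 against 3, 8.78% of all genes were lower and 10.6% higher. There the further mitosis genes were lower in 36 of 96 and higher in 1, and the S phase genes lower in 16 of 63 and higher in 0. The mast cell markers were higher in 2 of 13 and lower in 0. The part of these genes in the members' difference was not tested.

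Mitosis genes in the cells with the Esr1 hairpin were compared with those in the vector control cells at each β-estradiol condition. The labels name no clone, so the hairpin and any other difference between these transfected cells cannot be told apart. Without the replicate number in the fit, 0 of 42 members passed in SH against NC (9.07% of genes called, 4.92% higher and 4.15% lower) or in SH_E2 against NC_E2 (9.59% called, 5.3% higher and 4.28% lower). In both, 0 members had an unadjusted p under 0.05, and DESeq2 also called 0. In that fit the median standard error of a member was 0.41, against 0.21 for all genes. With the replicate number as a block the members' median standard error was 0.11, and 8 members passed in each comparison, 3 higher and 5 lower without β-estradiol and 4 higher and 4 lower with it. These are 19% of members, against 21.1% and 21.9% of all genes called in the same fits, so the share is near the background and is not a result about mitosis genes. Their medians were 0.01 and 0.05. In both comparisons, which use separate libraries, 5 members passed with the same sign, which is 62.5% of each list of 8. Over all genes the same count was 2035, which is 79.1% of the calls without β-estradiol and 76.3% of those with it, so the members recurred no more than genes in general.

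Kif20b, a kinesin of the late spindle, was lower in SH. It had 5.92, 11.0 and 12.6 FPKM in SH replicates 1, 2 and 3, against 10.5, 14.5 and 17.9 FPKM in NC, and 5.47, 9.94 and 11.7 FPKM in SH_E2, against 8.34, 13.6 and 17.3 FPKM in NC_E2. Within each number the SH library was the lower one in 6 of 6 pairs, although the groups overlapped. The blocked log2 fold changes were -0.63 ± 0.11 and -0.59 ± 0.11 (edgeR adjusted p = 0.000271 and 0.000529 with the block, 0.433 and 0.445 without it).

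Cenpe, which carries chromosomes to the metaphase plate, was higher. It was at 12.5, 15.3 and 14.4 FPKM in SH and 6.04, 8.95 and 11.2 FPKM in NC, with no overlap, and at 11.1, 12.2 and 15.4 FPKM in SH_E2 and 4.83, 8.26 and 10.3 FPKM in NC_E2, again with no overlap. The blocked changes were 0.70 ± 0.17 and 0.74 ± 0.17 (adjusted p = 0.00684 and 0.00434 in edgeR with the block, 0.379 and 0.332 without). Without SH replicate 1 the first was 0.48, with adjusted p = 0.0638.

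Kif23 was at 3.89, 6.53 and 6.37 FPKM in SH and 2.48, 3.98 and 4.77 FPKM in NC, and at 3.35, 5.35 and 6.35 FPKM in SH_E2 and 2.57, 4.30 and 4.70 FPKM in NC_E2. It was higher in 6 of 6 pairs, although the groups overlapped (0.54 ± 0.09 and 0.32 ± 0.09). Top2a was at 29.0, 57.5 and 63.9 FPKM in SH and 42, 60.7 and 73.4 FPKM in NC, and at 29.7, 51.9 and 65.2 FPKM in SH_E2 and 36.4, 58.1 and 71.1 FPKM in NC_E2. It was lower in 6 of 6 pairs, again with overlap (-0.32 ± 0.08 and -0.24 ± 0.08). Ncapd2 was lower in both comparisons as well (-0.26 ± 0.08 and -0.25 ± 0.08), through replicates 2 and 3 only, since replicate 1 had 189.4 FPKM in SH and 186 FPKM in NC, and 189.6 FPKM in SH_E2 and 188.1 FPKM in NC_E2.

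The other blocked calls were made in 1 of the comparisons. Without β-estradiol, Aurkb had 10.1, 22.3 and 24.3 FPKM in SH against 13.8, 22.5 and 31.9 FPKM in NC (-0.34 ± 0.10), and Kif11 had 7.55, 16.4 and 17.5 FPKM in SH against 9.46, 16.7 and 21.1 FPKM in NC (-0.26 ± 0.08). Both were lower in each pair, least so in replicate 2. Nek2, a centrosome kinase, was higher (0.35 ± 0.12), but without SH replicate 1 its value was 0.14 (edgeR adjusted p = 0.391), and it passed under 4 of 11 further settings. With β-estradiol, Cenpf had 2.99, 4.32 and 5.89 FPKM in SH_E2 against 1.89, 3.07 and 4 FPKM in NC_E2 (0.52 ± 0.15), and Hmmr, a spindle assembly factor, had 11.9, 17.9 and 21.3 FPKM in SH_E2 against 7.47, 14.8 and 18 FPKM in NC_E2 (0.34 ± 0.11). Smc4, a core condensin subunit, had 19.2, 26 and 26.1 FPKM in SH_E2 against 20.0, 31.5 and 32.6 FPKM in NC_E2 (-0.27 ± 0.09). These 3 genes moved one way in every pair, and their groups overlapped. Of the 16 calls, Kif20b in both comparisons and Kif23 without β-estradiol passed under all 11 further settings of the blocked fit, and the others were lost under 1 to 9 of them. Averaged over both β-estradiol conditions, a contrast added after the data were seen, 14 members passed with the block, 8 higher and 6 lower, where 35.2% of all genes were called. Without the block 0 members and 20.7% of all genes were called in it. The further calls were Ccna2 (0.17 ± 0.06), Mki67 (0.29 ± 0.11) and Nusap1 (0.19 ± 0.07), which passed under 7, 7 and 9 of 17 further settings.

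**Figure D4:**
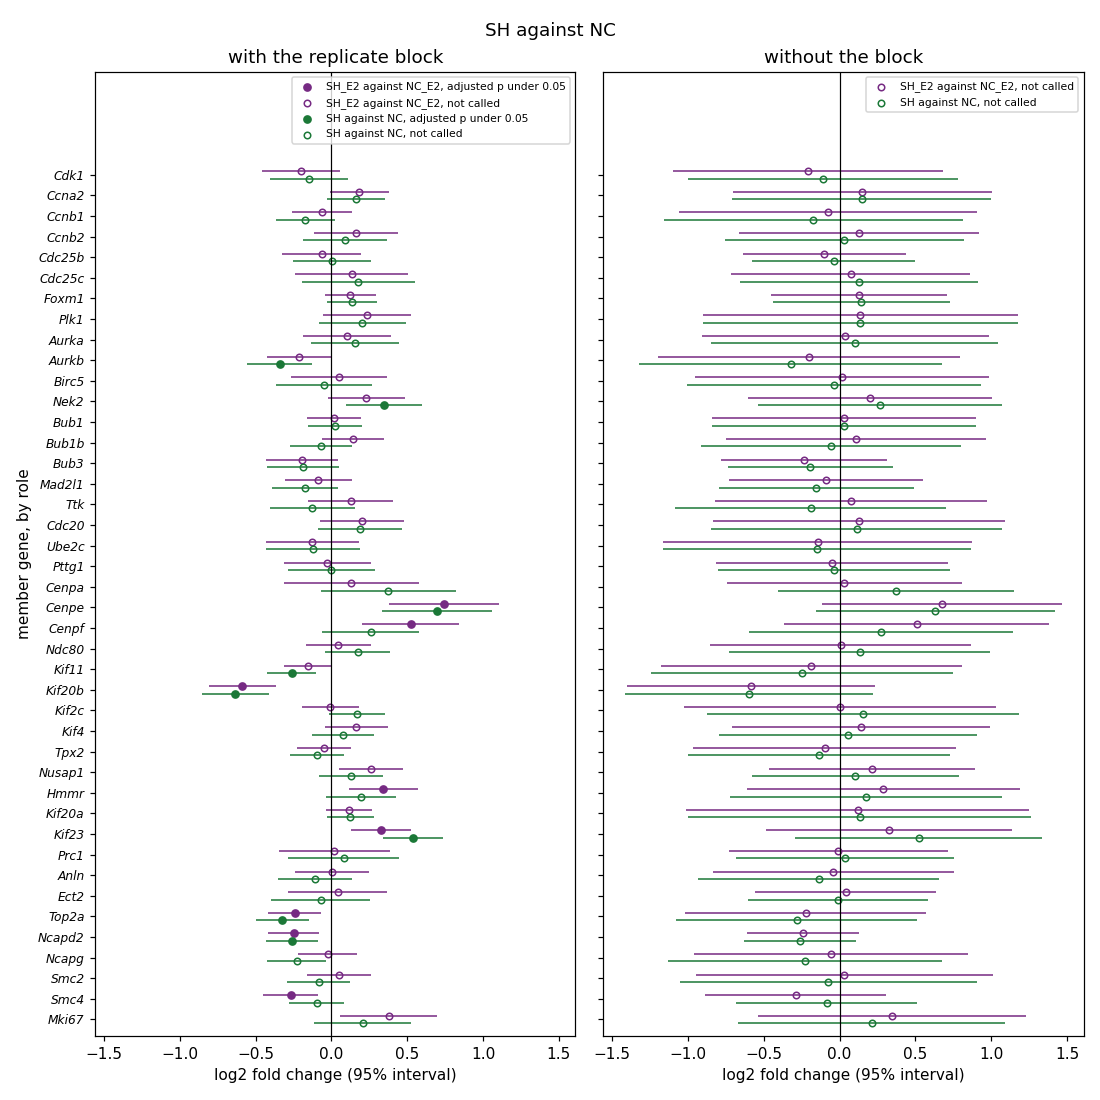
Log2 fold change with its 95% interval for each member, SH_E2 against NC_E2 (purple) and SH against NC (green), with the replicate block at left and without it at right; filled points have an adjusted p under 0.05. The intervals at left are narrower, and Kif20b at -0.59 and -0.63 and Cenpe at 0.74 and 0.70 lie farthest from 0.

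Kif20b and Kif11 lie on chromosome 19, where genes were lower in SH as a whole. Of 450 tested genes there, 179 were lower and 20 higher in SH than in NC in the blocked fit, with a median of -0.33. Over all tested genes that fit called 10.2% lower and 11.0% higher, 21.1% either way, the background for each count in this paragraph. Cenpe, Ccna2, Ect2 and Smc4 lie on chromosome 3, where 139 of 597 genes were higher and 50 lower (median 0.13). The part of these chromosomes in the members' differences was not tested. Of the 13 mast cell markers tested, 2 were higher and 6 lower in SH than in NC in that fit (median -0.28). S phase genes were 6 higher and 6 lower of 63, and further mitosis genes 7 higher and 8 lower of 96.

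β-Estradiol was then set against its absence within each arm. No member passed in any arm, with or without the block, and over all genes 0 were called in each arm without the block, and 0.0575% averaged over the 4 arms (0.0492% higher and 0.00821% lower). With the block 0 genes were called in SH, 1 in ICI (0.00821%), 3 in Tamo (0.0246%) and 0 in NC, and 0.115% averaged over the 4 arms. At an unadjusted p under 0.05 in the blocked fit there were 0 members in SH, 1 in ICI, 5 in Tamo and 1 in NC, which is 0%, 2.38%, 11.9% and 2.38% of them, against 2.39%, 3.96%, 8.81% and 4.34% of all genes. Member medians were -0.02 in SH, -0.05 in ICI, 0.02 in Tamo and -0.05 in NC. With the block, the 95% intervals of all 42 members lay within 2-fold in every arm, and those of 39 to 42 members lay within 1.5-fold. Averaged over the 4 arms all 42 lay within 1.5-fold, between -0.31 and 0.25 on the log2 scale.

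The members named next had the smallest p in the fit without the block, and unless called blocked their values come from that fit. With the block the smallest p was that of Foxm1 (-0.15 ± 0.08) in SH, Smc2 (-0.26 ± 0.10) in NC, and in both fits that of Anln in ICI and Smc4 in Tamo. In NC, Cenpa, the centromeric histone, had 5.24, 10.3 and 13.8 FPKM in NC_E2 against 5.65, 8.94 and 9.47 FPKM in NC, and Cenpf had 1.89, 3.07 and 4 FPKM against 2.62, 3.60 and 4.27 FPKM. The groups overlapped in both genes (0.28 ± 0.37 and -0.23 ± 0.42). In the SH arm, Prc1, which bundles midzone microtubules, had 4.29, 6.11 and 7.84 FPKM in SH_E2 against 7.27, 6.74 and 7.48 FPKM in SH (-0.23 ± 0.34), and Smc4 had 19.2, 26 and 26.1 FPKM against 18.7, 29.9 and 31.8 FPKM (-0.17 ± 0.29).

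In the ICI arm, Anln, an actin-binding scaffold of the cleavage furrow, had 2.69, 4.08 and 6.26 FPKM in ICI_E2 against 3.71, 5.38 and 6.46 FPKM in ICI, lower in 3 of 3 pairs (-0.24 ± 0.38), and Cdc25b had 6.30, 7.79 and 10.0 FPKM against 7.10, 7.67 and 11.9 FPKM (-0.13 ± 0.26). In the Tamo arm, Smc4 had 21.6, 30.5 and 37.0 FPKM in Tamo_E2 against 16.1, 24.3 and 26.6 FPKM in Tamo, and Nusap1 had 5.95, 7.88 and 10.6 FPKM against 4.84, 5.93 and 8.35 FPKM. Both were higher in 3 of 3 pairs. Their blocked changes were 0.41 ± 0.09 and 0.35 ± 0.10, with adjusted p = 0.219 and 0.327 in edgeR, so neither passed. Over the 4 arms Foxm1 (-0.11 ± 0.14) and Cdc25b (-0.08 ± 0.13) had the smallest p without the block.

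The difference of the β-estradiol effect between each arm and NC called 0 members and 0 genes in edgeR with and without the block. In the blocked fit the members with an unadjusted p under 0.05 numbered 0 of 42 in SH, 0 in ICI and 7 in Tamo (16.7%), where 1.96%, 2.28% and 9.59% of all genes were under it. The smallest p without the block belonged to Cenpa (-0.34 ± 0.52) and Smc4 (-0.20 ± 0.40) for SH, Cdc25b (-0.19 ± 0.36) and Prc1 (0.23 ± 0.49) for ICI, and Nusap1 (0.44 ± 0.46) and Smc4 (0.38 ± 0.40) for Tamo.

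The antiestrogens were set against the vector control at each β-estradiol condition. No member passed in any of the 4 comparisons, with or without the block, where at most 0.00821% of all genes were called. Member medians were -0.01 in ICI against NC, -0.10 in Tamo against NC, 0.01 in ICI_E2 against NC_E2 and -0.05 in Tamo_E2 against NC_E2. All 42 blocked intervals lay within 2-fold in these 4 comparisons, and 40 to 42 within 1.5-fold.

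In the blocked fit 9 of 42 members (21.4%) had an unadjusted p under 0.05 in Tamo against NC, where 8.77% of all genes did, and 0 passed the adjusted threshold. The counts were 0 in ICI against NC, 0 in ICI_E2 against NC_E2 and 1 in Tamo_E2 against NC_E2, where 1.95%, 2.74% and 6.48% of all genes did. Members varied together across libraries, so they are not 42 separate observations. The Tamo libraries also enter the counts given above for β-estradiol in Tamo and for its difference from NC. In Tamo 34, 30 and 30 of 42 members were below NC in pairs 1, 2 and 3, as were 53.4%, 48.2% and 53.5% of all tested genes. Nusap1 had 4.84, 5.93 and 8.35 FPKM in Tamo against 5.52, 8.28 and 11.0 FPKM in NC, and Cdc25c had 2.06, 2.21 and 3.88 FPKM against 2.67, 3.16 and 4.97 FPKM. Both were lower in 3 of 3 pairs (-0.37 ± 0.33 and -0.40 ± 0.38 without the block). The smallest blocked p was that of Kif11, at -0.30 ± 0.08 (edgeR adjusted p = 0.233).

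Without the block, Ect2 and Foxm1 had the smallest p for ICI-182780. Ect2 had 11.1, 13.1 and 16.1 FPKM in ICI against 12, 11.8 and 11.4 FPKM in NC (0.19 ± 0.28), and Foxm1 had 6.45, 8.60 and 9.50 FPKM against 6.47, 9.87 and 10.4 FPKM (-0.13 ± 0.28). With β-estradiol, Cenpa had 5.25, 9.87 and 9.45 FPKM in ICI_E2 against 5.24, 10.3 and 13.8 FPKM in NC_E2 (-0.24 ± 0.37), and Prc1 had 4.10, 8.18 and 8.14 FPKM against 3.40, 6.73 and 7.56 FPKM (0.22 ± 0.34). In Tamo_E2, Cdc25b had 5.65, 7.31 and 9.46 FPKM against 6.74, 8.09 and 11.2 FPKM in NC_E2 (-0.21 ± 0.26), and Cenpa had 4.98, 9.79 and 9.50 FPKM (-0.27 ± 0.37). The groups overlapped in each of these genes.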

How the data were processed

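RNA of 24 P815 libraries was measured as a single deposited table. Per the submitters' processing notes, reads were handled with cutadapt, HISAT2 and build GRCm38; for versions, quantifier, annotation and strand, nothing is stated in the labels. The authors deposited FPKM values and, per the file headers, unnormalized counts per gene. These counts are whole but pile up at multiples of 4 (a count of 4 is 16.2% of values from 1 to 40), so the deposited values were treated as estimated counts. Their intervals cover the spread between libraries only.

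Genes with 1 FPKM or more in at least 3 libraries entered (12183, all 42 members among them). Library sizes were adjusted with TMM factors of 0.969 to 1.05, and genes were tested by edgeR 4.0.16 quasi-likelihood (R 4.3.3) over all 24 libraries, 1 coefficient per group, with Benjamini-Hochberg adjustment over all genes and a threshold of 0.05. Tests were two-sided. The SE of a log2 fold change is its size over the square root of F. Scripts were tested on simulated data.

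Replicate numbers come from the sample titles. Deviations of same-numbered libraries from their group means correlated above 0.1 in 80 of 84 pairs (median 0.302) and in every pair of groups compared, and 23 of 24 libraries correlated best with their own number, so the numbers were taken to pair the libraries. Blocked values stand beside results they change.

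Every-library values were given for Cdk1, Ccnb1, Plk1, Cdc20, Aurka, Top2a, Mki67 and Foxm1, for up to 6 members passing per comparison by p, and for the 2 with the smallest p where none passed. Where a comparison is of 8 against 16 libraries these are the lowest, median and highest. Of further lists, up to 3 passing genes were eligible. Members, lists and tests were chosen with earlier results of these data known. Alternatives were DESeq2 1.42.0 and its size factors, limma 3.58.1 on log2(FPKM + 1) and log2(FPKM + 0.1), no FPKM filter, counts divided by 4, and each library left out.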

Additional observations from a re-analysis of the deposited data

How the results depend on the processing

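The 41 members lower in replicate 1 numbered 41 under every alternative run (range 41 to 41 over left-out libraries). Their median was -0.79 with limma on log2(FPKM + 1), a scale that shrinks low genes, and -0.93 to -0.90 with a library left out. Replicate 2 against 3 called 27 to 36 members over all alternatives and 27 to 34 with a library left out, with medians of -0.34 to -0.24. Counts for β-estradiol, ICI-182780, tamoxifen and the differences of effects were 0 under every alternative, the replicate block included. Their medians shifted with a left-out library, for example -0.32 to 0.19 for β-estradiol in NC. The 2 groups then hold unequal replicate numbers in the unblocked fit, and the part of this in the shift was not tested.

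The hairpin comparisons depended on the replicate block. Members passing numbered 0 without it and 8 with it in SH against NC, 8 in SH_E2 against NC_E2 and 14 averaged over both. In that order the blocked counts were 7, 8 and 14 with DESeq2 size factors, 7, 7 and 14 with counts divided by 4, 6, 6 and 16 with limma on log2(FPKM + 1), 8, 8 and 14 with DESeq2, and 3, 2 and 4 on replicates 2 and 3 alone. Leaving out 1 library of the comparison gave, with the block, 3 to 6 in each single comparison (5 without SH replicate 3 and without SH_E2 replicate 3) and 10 to 16 in the average (11 without NC replicate 2 or SH replicate 1, 12 or 13 for 6 others). Without the block it gave 0. These blocked settings other than the block itself were chosen after seeing the data. The lower count on replicates 2 and 3 alone comes with fewer samples.

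Unblocked values changed sign where a library was left out for Aurkb (0.0095) and Kif11 (0.027) without NC replicate 3 and Kif11 (0.051) without SH replicate 1 in SH against NC, and for Hmmr (-0.0041) without NC_E2 replicate 1 and Top2a (0.011 without NC_E2 replicate 3, 0.048 without SH_E2 replicate 1) in SH_E2 against NC_E2. Over all left-out libraries these ran down to -0.59 (Aurkb) and -0.52 (Kif11), up to 0.57 (Hmmr) and down to -0.48 (Top2a). The cause was not tested. TTTGAA was in 42.1% of members' promoter entries in the 250 bases before the start, against 76.3% in the whole entry. With 3 libraries a group and no block, 18 to 34 of 42 members had intervals within 2-fold in comparisons of single groups. For the other members the interval reached past 2-fold, so a change of that size was not excluded there.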

Other observations

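The cyclin-dependent kinase inhibitor Cdkn1a, a textbook target of p53, was abundant in every library (112.1 to 154.6 FPKM), whereas Cdkn2a and Cdkn2b were listed at 0 counts in all 24.

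In the hairpin comparison averaged over both β-estradiol conditions, a contrast added after the data were seen, 35.2% of all genes passed with the replicate block (18.3% higher and 17.0% lower). S phase genes were at that background, with 8 higher and 14 lower of 63 (34.9%), and of 15 genes of APC/C subunits and Cdh1 0 were higher and 4 lower (26.7%). Of 9 cell cycle brakes 4 were higher and 2 lower, with Rbl2, a pocket protein of the complex that represses cell cycle genes, at 0.84 ± 0.08 and Btg1 at -0.87 ± 0.07 (edgeR with the block).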
